A study of Homo sapiens with 6 samples.

Results

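Translation initiation factors were described here as the 56 genes, of 20024 in the deposited table, whose name begins with EIF followed by a digit. The rule used names only, and it also takes in the kinases that act on eIF2 and the proteins that bind eIF4E. The 1 member on chromosome Y, EIF1AY, is not reported here, which leaves 55. Of these, 53 had a mean of at least 1 FPKM (a read level corrected for gene length and sequencing depth) and were tested among 11445 genes. The other two, EIF3CL and EIF4E1B, stayed under 1 FPKM in every library.

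The libraries came from AC16 cells, a human line that the labels call cardiomyocytes. RNA was recovered with an antibody to PTBP1 and sequenced, an assay called RIP-seq. There were 3 libraries labelled DCRT-KO, from cells lacking the long noncoding RNA DCRT, and 3 labelled WT, and both groups used the same antibody. The labels do not say how the knockout was made, whether it is 1 clone, or whether replicates were separate cultures. The p-values therefore rest on library-to-library spread alone, and that spread may be technical. Neither input RNA nor a control antibody was analysed here, so transcript abundance and recovery with PTBP1 cannot be told apart.

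Initiation in human cells starts when eIF2 brings the initiator tRNA to the small ribosomal subunit, which eIF1 and eIF1A hold open for scanning. The eIF4F complex binds the capped end of the mRNA, eIF5B joins the large subunit, and eIF2B recharges eIF2 for the next round. PTBP1 recognises runs of C and U in RNA, acts in splicing, and helps some mRNAs to initiate without the cap. Many mRNAs of the translation machinery begin with a pyrimidine tract, the TOP motif, through which cells control their translation.

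Whole reads worked back from FPKM totalled 1798841 to 2589080 in the WT libraries and 373354 to 1380722 in the DCRT-KO libraries. Depth thus goes with genotype. The shallowest were DCRT-KO replicates 2 and 1 (373354 and 528371 reads). Results below without both shallowest libraries therefore compare DCRT-KO replicate 3 alone with WT, and only sizes are interpreted. Calls from that setting enter the list of calls by setting and the tallies over settings, and no conclusion is drawn from them. Of the 3 deposited WT columns, 2 carry the same replicate name, so the columns are called a, b and c, and no source used here says that those with the shared name, a and b, are separate replicates. They hold different values, with a chi-square over degrees of freedom of 3.10, and were the most alike of the WT pairs. The value was 4.73 for a and c, 4.15 for b and c, and 2.82 to 5.88 for the DCRT-KO pairs. Each column was counted as a library. Of 15 cardiomyocyte markers, 8 had no read in any library, among them TNNT2, MYH6, MYH7 and ACTN2. The summed FPKM of that list was 5.35 to 7.69 in WT and 1.59 to 14.6 in DCRT-KO. The 14.6 came from DCRT-KO replicate 2, where NPPA (4.78 FPKM) and NPPB (7.57 FPKM) had 2 reads each. The 4 epithelial markers, nearly all KRT8 and KRT18, summed to 58.5 to 67.0 FPKM in WT and 93.8 to 227 in DCRT-KO, with CDH1 at 0 in every library. The 8 fibroblast and matrix markers, nearly all PDGFRA, summed to 16.5 to 19.7 in WT and 8.41 to 11.1 in DCRT-KO. Among them COL1A2, DCN, LUM and POSTN were at 0. Endothelial markers (5 genes, CDH5 and TEK at 0) summed to 2.01 to 3.03 and 1.38 to 2.69, and blood markers (5 genes, PTPRC, HBB and LYZ at 0) to 0.635 to 2.61 and 0. The part of these differences in the results below was not tested, and in such bulk RNA fewer cells of a type and less RNA per cell cannot be told apart.

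The TOP feature was looked for at the start sites in the RefSeq promoter table (GRCh38.p14), which held 45 of the 53 tested members. A start was counted when its first base was C and the next 4 were each C or T, on the gene's own strand. It was present in 10 of the 45 members (22.2%), against 5.61% of 9116 tested genes in the table. The windows below run from 10 bases before the start to the 20 bases from the start, with the pyrimidine run in capitals. They are the 3 members of the 10 with the highest and the 3 with the lowest difference between DCRT-KO and WT. They lie at chr19:38619178-38619207 (EIF3K, plus strand), chr22:36529147-36529176 (EIF3D, minus), chr11:7987327-7987356 (EIF3F, plus), chr12:53006446-53006475 (EIF4B, plus), chr3:186783567-186783596 (EIF4A2, plus) and chr3:150546777-150546806 (EIF2A, plus).
EIF3K: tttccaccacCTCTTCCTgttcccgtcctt
EIF3D: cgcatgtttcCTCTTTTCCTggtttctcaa
EIF3F: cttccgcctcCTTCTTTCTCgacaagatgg
EIF4B: tcatccgggtCTTTTgcgttctctttccct
EIF4A2: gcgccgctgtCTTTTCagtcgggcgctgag
EIF2A: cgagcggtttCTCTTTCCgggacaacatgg
Members with such a start went both ways, with 6 higher and 4 lower in DCRT-KO. Their median log2 difference was 0.21, against 0.03 for the other 35 members in the table. A match of letters at an annotated start is a description and does not show that the mRNA begins there in these cells.

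Of the 53 tested factors, 1 fell and none rose in DCRT-KO RIP in the limma test on log2(FPKM + 1). In limma 2.35% of all tested genes were called higher and 1.20% lower. At an unadjusted limma p below 0.05, 9 members were higher and 6 lower, or 17.0% and 11.3% of members, against 12.3% and 11.3% of all tested genes. With limma-voom on whole reads, 6 members passed as higher and 2 as lower, where 5.85% and 3.40% of all tested genes passed. The WT and DCRT-KO values did not overlap for 12 higher and 7 lower members (22.6% and 13.2%), against 15.5% and 14.8% of all tested genes. The median log2 difference of the members was 0.05, with 30 higher and 23 lower (56.6% higher, against 47.2% of all tested genes), and that of all tested genes was -0.04. The 55 factors together summed to 1433, 1316 and 1453 FPKM in the WT libraries (a, b, c) and to 1432, 1669 and 1738 in the DCRT-KO libraries (1, 2, 3). The lowest DCRT-KO sum lay within the WT range, so the groups overlapped.

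**Figure D1:**
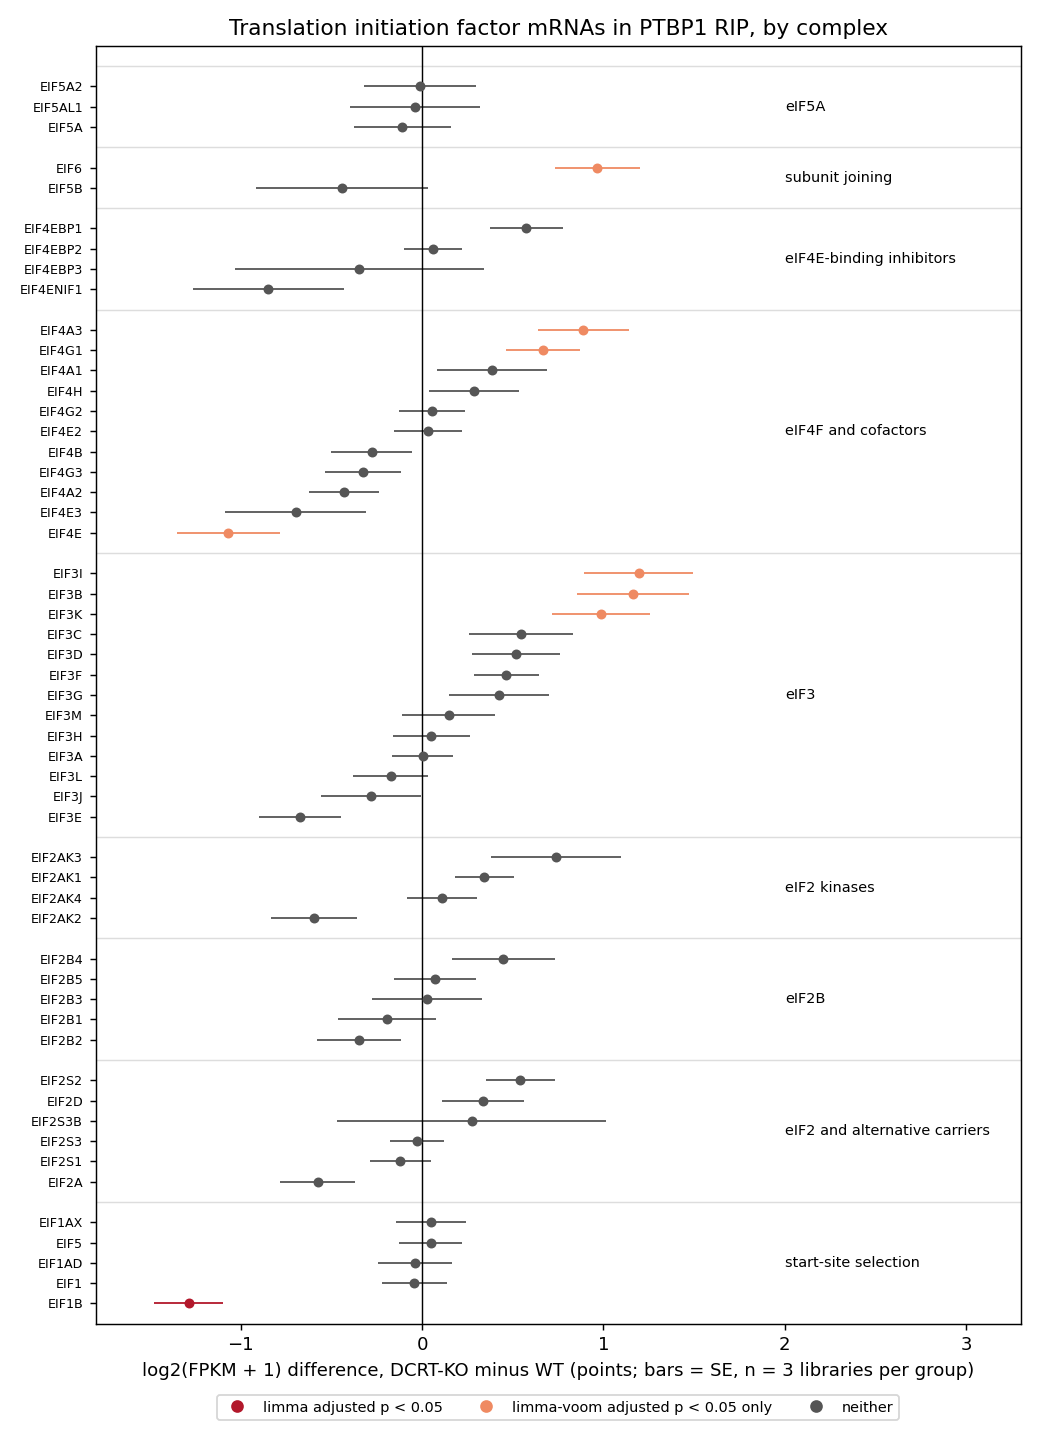
The log2(FPKM + 1) difference (DCRT-KO minus WT) of each of the 53 tested factors, grouped by complex, with bars for the standard error (SE, n = 3 libraries per group) and colours for the test passed. EIF1B, at -1.29, is the only point past the limma threshold, and eIF3 has 10 of its 13 points above 0.

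EIF1B was the factor that fell. It is a close paralog of EIF1, whose product guards the choice of start codon during scanning. EIF1B had 19.6, 15.6 and 20.8 FPKM in the WT libraries (a, b, c), from 96, 53 and 81 reads. It had 7.01, 7.09 and 6.90 FPKM in the DCRT-KO libraries (1, 2, 3), from 7, 5 and 18 reads. All DCRT-KO values lay below the lowest WT value, and the mean was 2.67-fold lower. Because these values rest on 7, 5 and 18 reads, their closeness is no measure of precision. The log2 difference was -1.29 ± 0.19 SE with limma (adjusted p = 0.0175) and -1.36 ± 0.38 SE with voom (adjusted p = 0.0243). The call was lost without any 1 of the WT libraries (limma adjusted p = 0.0821 to 0.104) and when all libraries were thinned to 373354 reads (0.0855). Leaving out 1 WT library left 0 of 11445 genes called lower, so that loss was not particular to EIF1B. Without both shallowest libraries, with only DCRT-KO replicate 3 left, the log2 difference was -1.31. The log2 difference stayed between -1.41 and -1.10 over 18 other settings. The gene lies at chr3:40309707-40312424 on the plus strand. No other GENCODE 29 gene overlaps it, and 31 of 52 tested genes within 5 Mb were lower, with a median of -0.09.

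The other start-site factors showed no such difference. EIF1 averaged 26.6 ± 3.496 FPKM in WT and 25.8 ± 3.37 in DCRT-KO (SD, n = 3 each), with overlapping values. Its log2 difference was -0.04 (95% interval -0.45 to 0.36, limma adjusted p = 0.904), and whether EIF1 and EIF1B differ in response was not tested. GENCODE 29 names 7 pseudogene copies of EIF1, so how its reads were assigned is uncertain. EIF1AX, which opens the small subunit together with eIF1, averaged 10.96 ± 1.24 and 11.4 ± 1.47 FPKM. EIF5, which makes eIF2 hydrolyse its GTP at the start codon, had 30.3 ± 4.03 and 31.3 ± 4.20. EIF1AD, named for its eIF1A-like domain and the highest of the group, had 58.3, 55.0 and 39.6 FPKM in WT and 40.4, 49.1 and 58.8 in DCRT-KO, over the same range.

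The trimer eIF2 is built from EIF2S1, the alpha subunit that stress kinases phosphorylate, EIF2S2 and EIF2S3. No gene of this group passed either test. EIF2S2, the beta subunit, had 17.4, 15.9 and 23.1 FPKM in WT and 31.1, 26.2 and 25.5 in DCRT-KO. Its groups did not overlap, and its log2 difference of 0.54 ± 0.19 SE had a limma adjusted p of 0.127. EIF2S1 averaged 18.8 ± 1.02 FPKM in WT and 17.2 ± 1.83 in DCRT-KO, with overlapping values. EIF2S3, the gamma subunit and the highest of the group, had 57.9, 59.9 and 49.5 FPKM in WT and 53.8, 55.8 and 54.1 in DCRT-KO, which overlapped. EIF2S3B, its copy on chromosome 12, ranged from 0.400 to 4.13 FPKM in WT and from 0 to 7.74 in DCRT-KO on at most 18 reads. Among 79 tested genes within 5 Mb of EIF2S3B, 64 were lower, with a median of -0.55.

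EIF2A and EIF2D can bring initiator tRNA to the ribosome outside the eIF2 route. EIF2A had 8.50, 10.5 and 11.7 FPKM in WT and 5.77, 7.26 and 6.50 in DCRT-KO. Every DCRT-KO value was below every WT value, and the log2 difference of -0.58 ± 0.21 SE did not pass (limma adjusted p = 0.137). EIF2D had 5.61 ± 0.671 and 7.41 ± 1.58 FPKM, with overlapping values.

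The exchange factor eIF2B has 5 subunits, and none of its genes passed or had groups that did not overlap. Of them, 3 were higher and 2 lower, with log2 differences from -0.35 (EIF2B2) to 0.45 (EIF2B4). EIF2B1, the highest, had 12.4, 12.6 and 11.2 FPKM in WT and 6.78, 10.3 and 15.8 in DCRT-KO, where the 3 libraries spanned the WT values. The summed level of the 5 genes was 35.2 ± 1.78 FPKM in WT and 35.0 ± 4.04 in DCRT-KO.

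The 4 kinases of eIF2 alpha each answer to another stress, and none passed. EIF2AK2, known as PKR and activated by double-stranded RNA, had 8.15, 13.8 and 11.1 FPKM in WT and 7.04, 5.73 and 7.75 in DCRT-KO. All DCRT-KO values lay below WT, with a log2 difference of -0.60 ± 0.24 SE (limma adjusted p = 0.168). Of 30 tested genes within 5 Mb of EIF2AK2, 28 were lower, with a median of -0.54. EIF2AK1, the heme-regulated kinase HRI and the highest of the group, had 27.9, 32.8 and 31.4 FPKM in WT and 42.0, 34.1 and 41.8 in DCRT-KO. Its groups did not overlap (log2 difference 0.34 ± 0.16 SE, limma adjusted p = 0.239), and its 52 neighbours on chromosome 7 had a median of 0.62. EIF2AK3, or PERK, of the endoplasmic reticulum, had 2.20 ± 0.854 and 4.57 ± 2.44 FPKM, and EIF2AK4, or GCN2, which senses uncharged tRNA, 11.5 ± 1.204 and 12.5 ± 1.78. Both overlapped between the groups.

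The large scaffold eIF3 links the small subunit to eIF4F and the mRNA. Of 13 tested subunit genes, 10 were higher and 3 lower in DCRT-KO, with a median log2 difference of 0.42. This median was 0.22 without DCRT-KO replicate 2 and 0.23 without both shallowest libraries. The groups did not overlap for 6 higher genes and 1 lower gene of eIF3, where 15.5% and 14.8% of all tested genes had such groups. In limma none passed, and 4 were higher and 1 lower at an unadjusted p below 0.05, where 12.3% and 11.3% of all tested genes were. In voom 3 passed as higher and none as lower, where 5.85% and 3.40% of all tested genes passed. The summed level of the 14 listed subunits was 214, 198 and 224 FPKM in WT and 254, 330 and 236 in DCRT-KO, where library 2 was far above the others.

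EIF3B, EIF3I and EIF3G form a module of eIF3 that in yeast sits near the mRNA entry side. EIF3I, a WD-repeat subunit, had 15.7, 10.96 and 21.1 FPKM in WT and 31.8, 55.9 and 27.3 in DCRT-KO (from 70, 34 and 75 reads against 29, 36 and 65). Its groups did not overlap, and the log2 difference of 1.195 ± 0.30 SE had an adjusted p of 0.0596 with limma and 0.0213 with voom. It was 0.79 without both shallowest libraries. Genes within 5 Mb of EIF3I had a median of 0.03, with 50 of 92 higher. EIF3B, the scaffold of the module, had 9.70, 11.4 and 11.7 FPKM in WT and 24.3, 43.0 and 16.0 in DCRT-KO. These groups did not overlap either (difference 1.16 ± 0.31 SE in log2, adjusted p = 0.0677 with limma and 0.00611 with voom). The highest value came from the shallowest library, and without both shallowest libraries the log2 difference was 0.52. EIF3B lies in the first 10 Mb of chromosome 7, where 46 of its 50 tested neighbours were higher, with a median of 0.66. EIF3G averaged 10.04 ± 0.404 and 14.6 ± 6.28 FPKM, with overlapping values.

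EIF3K, a small subunit, had 4.97, 4.77 and 7.45 FPKM in WT and 9.47, 17.2 and 10.9 in DCRT-KO. All DCRT-KO values were above WT (log2 difference 0.99 ± 0.27 SE, adjusted p = 0.072 with limma and 0.0468 with voom). Among 116 tested genes within 5 Mb of EIF3K, 66 were higher, with a median of 0.12. EIF3D, which can itself bind the cap of some mRNAs and had the highest mean of the complex, had 33.8, 28.4 and 32.0 FPKM in WT and 39.7, 68.1 and 34.4 in DCRT-KO. Its groups did not overlap by a small margin, and its difference of 0.52 ± 0.24 SE did not pass (limma adjusted p = 0.237). It was 0.23 without DCRT-KO replicate 2 and 0.13 without both shallowest libraries. EIF3F spanned 18.6 to 24.9 FPKM in WT and 27.3 to 34.1 in DCRT-KO, without overlap and without passing (limma adjusted p = 0.162).

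EIF3E went the other way, with 30.6, 33.8 and 29.2 FPKM in WT and 19.5, 13.8 and 25.9 in DCRT-KO. All DCRT-KO values were below WT, and its log2 difference of -0.67 ± 0.22 SE did not pass (limma adjusted p = 0.114, 0.0256 without DCRT-KO replicate 3, and a difference of -0.26 without both shallowest libraries). EIF3A, the largest subunit, averaged 35.2 ± 4.53 FPKM in WT and 35.2 ± 3.58 in DCRT-KO, with a 95% interval of the log2 difference from -0.37 to 0.38. EIF3H, EIF3J, EIF3L and EIF3M also overlapped, with log2 differences from -0.28 to 0.15. EIF3C had 1.27, 1.59 and 1.81 FPKM in WT and 3.52, 2.69 and 2.07 in DCRT-KO, which did not overlap (log2 difference 0.54, limma adjusted p = 0.282, and 0.27 without both shallowest libraries). It shares a near-identical copy, EIF3CL, so their reads cannot be assigned to either with certainty. Their levels were below those of the other 12 eIF3 genes in FPKM, which is per length.

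**Figure D2:**
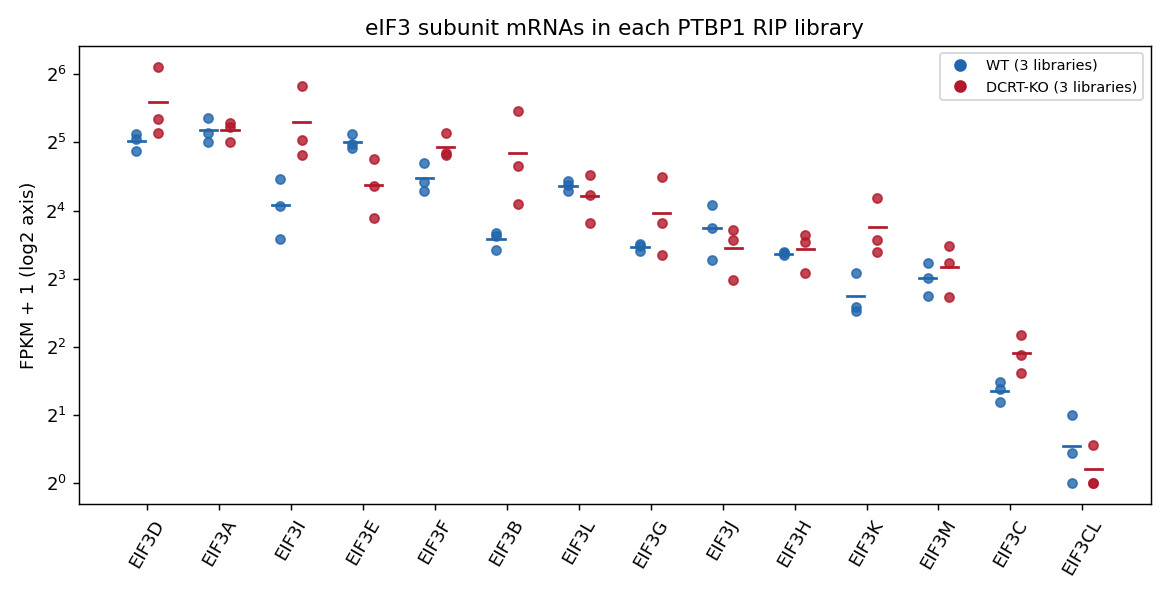
FPKM + 1 on a log2 axis for the 14 eIF3 genes in each of the 6 libraries, ordered by mean level, with short lines at the arithmetic mean of each group. EIF3I, EIF3B and EIF3K have all DCRT-KO points above WT, EIF3E has all below, and EIF3C and EIF3CL have the lowest levels.

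The cap-binding complex eIF4F joins the cap-binding protein eIF4E, the scaffold eIF4G and the helicase eIF4A. Its members moved in both directions, with 6 of 11 tested genes higher and 5 lower and a median log2 difference of 0.03. That median was -0.37 with quantile normalization and 0.26 without both shallowest libraries, so it has no settled direction. None passed with limma, and 2 were higher and 2 lower at an unadjusted p below 0.05 (12.3% and 11.3% of all tested genes). With voom 2 passed as higher and 1 as lower, where 5.85% and 3.40% of all tested genes passed. EIF4E itself had 4.20, 4.58 and 4.62 FPKM in WT and 1.35, 1.14 and 2.52 in DCRT-KO (from 153, 116 and 134 reads against 10, 6 and 49). All DCRT-KO values lay below WT, and the mean was 2.67-fold lower. The log2 difference was -1.07 ± 0.28 SE (adjusted p = 0.0676 with limma, 0.019 with voom), and -0.63 without both shallowest libraries.

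EIF4G1, the main scaffold, had 36.7, 42.8 and 43.5 FPKM in WT and 67.8, 83.4 and 49.7 in DCRT-KO. All DCRT-KO values were above WT, with a log2 difference of 0.67 ± 0.20 SE (adjusted p = 0.0928 with limma, 0.0231 with voom). Without both shallowest libraries it was 0.28. Among 50 tested genes within 5 Mb of EIF4G1, 31 were lower, with a median of -0.14. The other scaffold genes overlapped between the groups. EIF4G3 had 13.3 ± 1.89 and 10.5 ± 2.04 FPKM. EIF4G2, or DAP5, which lacks the eIF4E-binding part and was the highest of the group, had 146, 150 and 182 FPKM in WT and 136, 173 and 190 in DCRT-KO. Its log2 difference of 0.05 turned to -0.39 with quantile normalization.

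EIF4A3, a helicase of the exon junction complex rather than of initiation, had 9.50, 7.94 and 13.9 FPKM in WT and 15.6, 25.3 and 19.3 in DCRT-KO. The groups did not overlap, and the log2 difference of 0.89 ± 0.25 SE had an adjusted p of 0.077 with limma and 0.0155 with voom. Of 110 tested genes within 5 Mb of EIF4A3, 76 were higher, with a median of 0.23. EIF4A2 averaged 21.9 ± 1.16 FPKM in WT and 16.2 ± 3.60 in DCRT-KO, with all DCRT-KO values below WT and no call (limma adjusted p = 0.212). EIF4A1, the usual helicase of eIF4F, was listed at only 2.21 ± 0.541 and 3.27 ± 1.20 FPKM. GENCODE 29 names 13 pseudogene copies of EIF4A1 and the readthrough gene SENP3-EIF4A1 overlaps it on the same strand, and whether this lowers its listed level was not tested. EIF4H and EIF4B, which stimulate the helicase, had 136 ± 13.4 and 173 ± 66.8, and 75.4 ± 17.4 and 61.7 ± 12.5 FPKM, in WT and DCRT-KO. In DCRT-KO replicate 3, EIF4H stood at 250 FPKM against 131 and 138 in the other two. EIF4E2, a cap-binding relative that represses translation, had 12.4 ± 0.297 and 12.8 ± 2.19. EIF4E3 had 1.64, 2.01 and 1.57 FPKM in WT and 0, 0.991 and 1.41 in DCRT-KO, on 0, 4 and 21 reads (limma adjusted p = 0.31). Its log2 difference of -0.70 was -0.32 without DCRT-KO replicate 1, -0.18 without both shallowest libraries, -1.37 with voom and -1.74 with a pseudocount of 0.1. Of 17 tested genes within 5 Mb of EIF4E3, 14 were lower, with a median of -0.47. The coding gene AC097634.4 overlaps EIF4E3 on the same strand, so reads between them are uncertain.

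The inhibitors of eIF4E compete with eIF4G for it. EIF4EBP1, which mTOR phosphorylates, had 152, 111 and 136 FPKM in WT and 153, 219 and 228 in DCRT-KO. The lowest DCRT-KO value exceeded the highest WT value only slightly, and the log2 difference of 0.58 ± 0.20 SE did not pass (limma adjusted p = 0.129, 0.0599 with voom). It was 0.13 with quantile normalization and 0.17 with each library's trend with GC content removed. EIF4EBP2 had 106 ± 7.88 and 111 ± 15.2 FPKM, and EIF4EBP3 had at most 4 reads in any library. EIF4ENIF1, or 4E-T, which carries eIF4E into the nucleus and into processing bodies, had 3.32 ± 1.24 and 1.52 ± 1.11 FPKM and overlapped. The 4 genes summed to 265, 226 and 239 FPKM in WT and to 281, 325 and 334 in DCRT-KO, most of it from EIF4EBP1 and EIF4EBP2.

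EIF6 binds the large subunit and keeps it from joining too early. It had 34.6, 20.5 and 39.8 FPKM in WT and 58.0, 64.0 and 59.5 in DCRT-KO (from 146, 60 and 134 reads against 50, 39 and 134). All DCRT-KO values were close together and above WT, 1.91-fold in the mean. The log2 difference of 0.97 ± 0.23 SE had an adjusted p of 0.0557 with limma and 0.0153 with voom. Its 79 tested neighbours within 5 Mb, 56 of them higher, had a median of 0.29, and nearly all are neighbours of EIF2S2 as well. Another annotated coding gene, AL121753.1, overlaps EIF6 on the same strand, so reads between them are uncertain. EIF5B, which joins the subunits, had 3.58, 5.37 and 3.27 FPKM in WT and 6.02, 0.681 and 3.22 in DCRT-KO, on 25, 2 and 35 reads in the latter. EIF5A, now known chiefly as an elongation and termination factor, had 102, 89.2 and 75.5 FPKM in WT and 52.9, 88.8 and 116 in DCRT-KO, a wider range around the same level. Its relatives EIF5A2 and EIF5AL1 had at most 2.73 FPKM in any library, and EIF5AL1 is a copy of EIF5A, so reads between them are uncertain.

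**Figure D3:**
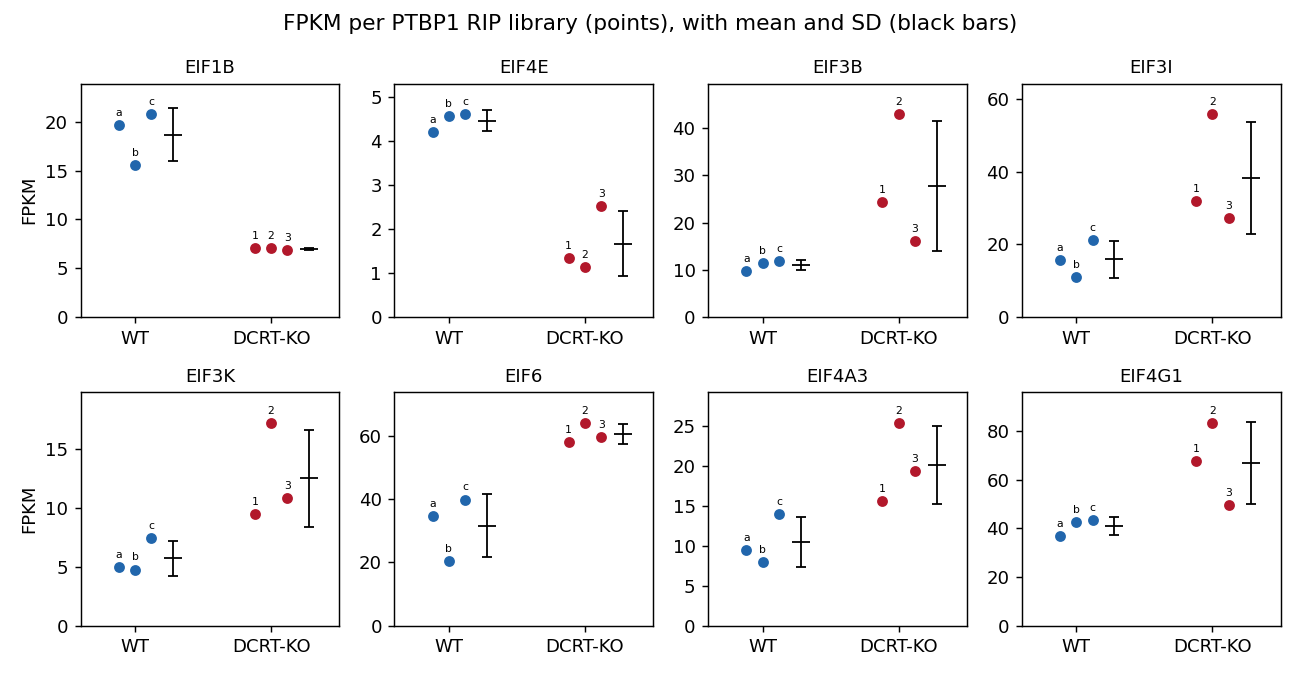
FPKM in each library (points marked by library a, b, c or 1, 2, 3) for the 8 factors that passed limma or limma-voom, with mean and SD in black; every vertical axis starts at 0. In each panel the WT and DCRT-KO points do not overlap, but the factors were chosen by tests on these values, so this adds no support. Library 2 is the highest DCRT-KO point for each of the 6 higher factors.

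These 8 factors were examined for the letters TCTT and CTCTCT, short CU-rich elements of the kind PTBP1 binds, on the transcript strand of the longest protein-coding transcript in the GENCODE 29 basic set (GRCh38). The 53 members had a median of 5.72 TCTT per kb and 1 CTCTCT per transcript, against 5.08 and 1 over 11424 tested genes. For 6 of the 8, the first 30-base window with the most bases inside either element is printed below, with those elements in capitals, which can overlap. They were chosen to show such letters in lower and in higher factors side by side. They lie at chr3:40309720-40309749 (EIF1B, plus strand, 5′ UTR), chr4:98880552-98880581 (EIF4E, minus, 3′ UTR), chr7:2380437-2380466 (EIF3B, plus, 3′ UTR), chr1:32222377-32222406 (EIF3I, plus, 5′ UTR), chr20:35279957-35279986 (EIF6, minus, coding) and chr17:80135321-80135350 (EIF4A3, minus, 3′ UTR).
EIF1B: gccgccTCTTctctcgcgccctcgccTCTT
EIF4E: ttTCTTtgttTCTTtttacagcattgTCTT
EIF3B: atttaaggcacccgcttccactTCTTTCTT
EIF3I: ggaagtgacctcgaaaccttttccggTCTT
EIF6: gaagaccaggatgagctgtcCTCTCTTCTT
EIF4A3: gaggatatggggattctgCTCTCTTtTCTT
EIF4E held 12 such bases, a number reached in 26.1% of tested transcripts. EIF4A3 held 11 (35.7%), EIF6 10 (45.2%), EIF1B and EIF3B 8 each (80%) and EIF3I 4 (99.6%). These shares also depend on transcript length, and introns were not searched.

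The differences went with base composition. Across the 53 members, the log2 difference had a Spearman rho of 0.53 with the GC content of the transcript and -0.42 with TCTT per kb, and over 11424 tested genes the values were 0.43 and -0.33. The points share the same 6 libraries and are described without a test. TCTT is mostly T, so its density and GC content are not independent, and their parts were not separated. Of 17 members with at least 50% GC, 14 were higher in DCRT-KO, and of 36 below 50%, 16 were. Over all tested genes the numbers were 3360 of 5195 and 2034 of 6229. EIF1B (42.8% GC) and EIF4E (39.0%) stood at -1.29 and -1.07, where tested genes within 2 points of their GC content had medians of -0.19 and -0.31. EIF3B (56.7%), EIF6 (58.0%) and EIF4G1 (57.4%) stood at 1.16, 0.97 and 0.67, against medians of 0.16, 0.17 and 0.16. With each library's trend with GC content removed, a setting added after the data were seen, EIF1B still passed with a log2 difference of -1.10 ± 0.19 SE (limma adjusted p = 0.0329). EIF4E then had -0.76 ± 0.26 SE (limma adjusted p = 0.152). Differences of 4 other lower factors shrank by a larger share, to -0.29 for EIF2A, -0.28 for EIF2AK2, -0.34 for EIF3E and -0.33 for EIF4E3. The 6 higher factors that passed voom shrank too, and none passed limma in this setting. They had 1.13 (EIF3I), 0.98 (EIF3B), 0.89 (EIF3K), 0.83 (EIF4A3), 0.76 (EIF6) and 0.47 (EIF4G1). Some other higher factors grew, such as EIF3F (0.46 to 0.72) and EIF2S2 (0.54 to 0.65).

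**Figure D4:**
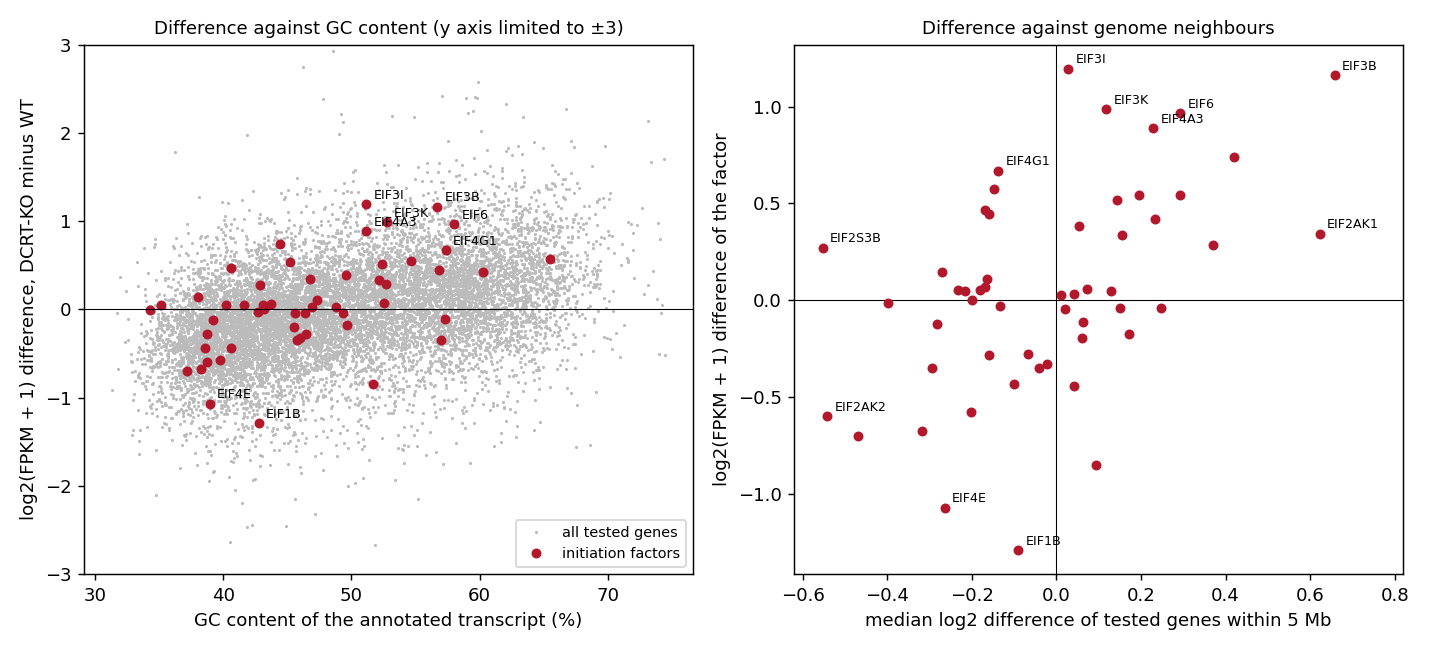
Left, the log2(FPKM + 1) difference (DCRT-KO minus WT) against transcript GC content for 11424 tested genes (grey) and the 53 factors (red); right, the difference of each factor against the median difference of tested genes within 5 Mb. Differences rise with GC content in both sets, and EIF3B and EIF2AK1 sit among neighbours with medians of 0.66 and 0.62.

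Genes of the pathway without an EIF name were read from a list of 39, of which 37 were tested. With limma 2 rose and 1 fell, where 2.35% and 1.20% of all tested genes did. In all, 16 were higher and 21 lower, where 47.2% of all tested genes were higher, and the median log2 difference was -0.07. EEF1A1, which brings aminoacyl tRNA to the elongating ribosome, rose from 195, 194 and 248 FPKM (WT) to 426, 577 and 385 (DCRT-KO). The groups did not overlap (log2 difference 1.11 ± 0.20 SE, limma adjusted p = 0.0271). EEF1B2, a subunit of its exchange factor, rose from 29.2, 29.9 and 37.5 FPKM to 78.1, 103.5 and 51.4 (log2 difference 1.197 ± 0.25 SE, limma adjusted p = 0.0363). In all, 6 of 7 tested elongation genes were higher. RPS6KB1, the S6 kinase that mTOR activates, fell from 6.52, 5.71 and 5.61 FPKM to 2.46, 1.39 and 2.73 on 10, 4 and 29 reads (log2 difference -1.14 ± 0.26 SE, limma adjusted p = 0.0491). Of 65 tested neighbours of RPS6KB1 within 5 Mb, 57 were lower, with a median of -0.51. Each of these 3 calls was lost on leaving out any 1 WT library. The limma adjusted p was then 0.0956 to 0.148 for EEF1A1, 0.113 to 0.164 for EEF1B2 and 0.163 to 0.2 for RPS6KB1. Among all 11445 genes, leaving out 1 WT library left 0 to 8 called higher and 0 lower, so the loss was not particular to these genes. Over all alternative settings, EEF1A1 passed in 10 of 18, EEF1B2 in 8 of 18 and RPS6KB1 in 5 of 17. With the GC trend removed EEF1A1 passed (adjusted p = 0.0362), and EEF1B2 (0.0597) and RPS6KB1 (0.122) did not. EEF1A1 had a log2 difference of 0.56 with quantile normalization, and EEF1B2 had 0.67 without both shallowest libraries. The 16 genes on the cap and poly(A) side, RPS6KB1 among them, had a median of -0.15 with 6 higher and 10 lower. The 3 termination genes and 2 mitochondrial initiation factors had negative differences, and none passed.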

How the data were processed

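The 6 libraries, 3 per genotype, held RNA from PTBP1 RIP of AC16 cells. The authors deposited FPKM per gene with lengths and positions. Per the labels' protocols the libraries were strand-specific and paired-end, and cutadapt 1.2.1 is listed, per the submitters' processing notes. No source used here gives the aligner, counter or build. Because FPKM is relative, higher values of some genes lower others. Reads were recovered by dividing FPKM times length by its smallest step in each library, and 100% came out whole (tolerance 1e-06). Replicates of a group differed by more than sampling noise (chi-square over degrees of freedom 2.82 to 5.88). Unused per-sample columns numbered 0.

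A mean of 1 FPKM or more admitted a gene to limma 3.58.1 (R 4.3.3), run two-sided on log2(FPKM + 1) with trend on, and p-values were adjusted by Benjamini-Hochberg over all 11445 genes and a threshold of 0.05. This scale understates changes of low genes. The 9 complexes, partner and marker lists were chosen with earlier results of these data known. Factors given by library are those past limma or limma-voom, those with separate groups and a log2 difference of at least 0.5, and the highest per complex; others are given where they complete a complex. Partners named passed limma. The test was checked on simulated counts with the same spread for all genes and no GC or regional trend. That check does not cover calls that unequal spread or such trends could produce, and no result above rests on it. Alternatives were a pseudocount of 0.1, other filters, scalings and variance models, left-out libraries, voom, thinning (20 draws, medians given) and, added later, removal of the GC trend. Of 55 members outside chromosome Y, all overlapped their GENCODE 29 (GRCh38) gene and 27 had the same ends; gene positions are the file's.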

Additional observations from a re-analysis of the deposited data

How the results depend on the processing

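The number of factors called lower (1, EIF1B) was 0 after thinning and 2 with voom, and leaving out 1 library in turn gave 0 to 4. The number called higher (0) was 3 with a filter of 5 FPKM, where 384 of 7099 genes were, and 6 with voom, and 0 to 3 leaving out 1 library. Over all 11445 genes, 269 were higher and 137 lower. Higher and lower calls were 72 and 50 with no filter, 70 and 64 without a variance trend, 27 and 11 without both shallowest libraries, 669 and 389 with voom, 41.5 and 18.5 after thinning (medians over 20 draws), and 94 and 65 with the GC trend removed. The calls without both shallowest libraries come from a fit with 1 DCRT-KO library, where the spread is that of WT alone. They are listed only and cannot be compared with the other settings. Lower calls were 90 with a pseudocount of 0.1. Quantile normalization gave 219 higher and 231 lower. Leaving out 1 library gave 0 to 707 higher calls, lowest without a WT library, and 0 to 821 lower calls, highest without DCRT-KO replicate 3. The median log2 difference of the factors (0.05) was 0.17 without both shallowest libraries and 0.17 with the GC trend removed.

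Some uncalled differences near 0 changed sign. EIF1AD was at 0.22 without both shallowest libraries, 0.0062 with voom and -0.21 to 0.094 leaving out 1 library. EIF2B1 was at 0.36 without both shallowest libraries and -0.47 to 0.0813 leaving out 1, and EIF5A at 0.39 and -0.36 to 0.20. EIF2S3 was at 0.16 with the GC trend removed and -0.11 to 0.0261 leaving out 1. EIF4G2 was at -0.39 with quantile normalization and -0.0501 to 0.19 leaving out 1. The cause was not tested. No paired analysis was possible because the WT libraries have no replicate numbers that could be matched. Depth limits factors with few reads in the DCRT-KO libraries, such as EIF1B (5 to 18) and EIF4E (6 to 49).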
